A study of Rattus norvegicus with 4 samples.

Results

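The 35 genes described here belong to cholesterol and fatty acid synthesis, to the switch that controls both, and to the export of cholesterol. They were chosen by symbol from the rows of the deposited count table, which lists 23608 genes, and all 35 passed the expression minimum that 13634 genes reached. They fall into 4 branches: 18 enzymes of sterol synthesis, 6 genes of SREBP control and sterol sensing, 6 enzymes of fatty acid synthesis, and 5 genes of the liver X receptors (LXR) and cholesterol efflux. Microvessels of primary vascular cells from subcutaneous soft connective tissue of wild type rats were grown on stiff or soft matrix, each with and without A83-01, an inhibitor of the TGF-beta type I receptor kinases. The series asked how stiffness and this inhibitor act on microvessels and on the turn of pericytes, the contractile cells that wrap capillaries, into myofibroblasts. Stiffness values, the inhibitor's dose and the age of the animals are not in the labels. Each of the 4 groups, stiff with A83-01, stiff, soft with A83-01 and soft, is 1 library, so a difference between a pair of libraries has no replicate check.

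Cholesterol is built from acetyl-CoA through mevalonate, farnesyl diphosphate and squalene. When sterols run low in the endoplasmic reticulum, SCAP carries the SREBP transcription factors to the Golgi, where they are cut and freed to switch on the genes of sterol and fatty acid synthesis, and INSIG proteins hold this complex back when sterols are plentiful. Oxysterols, made when cholesterol is in excess, activate LXR, which raises the cholesterol exporters ABCA1 and ABCG1 and, through MYLIP, lowers uptake.

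Depth was 32271844 to 33416200 counts a library. The 35 genes took 0.417% of all counts in stiff with A83-01, 0.358% in stiff, 0.272% in soft with A83-01 and 0.233% in soft. Levels between libraries are given as CPM, the count scaled to a library's size after trimmed-mean (TMM) scaling. The TMM factors were 1.07, 0.876, 1.04 and 1.03 in the same order, and the collagen gene Col1a1 alone took 2.04%, 6.09%, 1.82% and 4.05% of counts. Label names of the stiff libraries have another form than those of the soft ones, and whether they were prepared separately is not stated, so that matrix and preparation cannot be told apart below. In bulk RNA, fewer cells of a type and less RNA per cell cannot be told apart either.

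Sterol synthesis genes were higher on stiff matrix along almost the whole pathway, and 10 of the 18 rose in the test over all 4 libraries. That test was the quasi-likelihood test of edgeR, fitted with stiffness and inhibitor as additive terms, with Benjamini-Hochberg adjustment over all genes tested at 0.05. Over all 13634 genes, 2.35% were called higher and 3.29% lower on stiff matrix. Of the 35 members, 11 rose and 0 fell, and at an unadjusted p of at most 0.05 these counts were 25 and 1, against 12.1% and 13.2% of all genes. The called members were 10 sterol enzymes and 1 fatty acid enzyme, with none from SREBP control or from LXR and efflux. The model leaves 1 residual degree of freedom, so genes whose stiffness responses with and without A83-01 are alike are favoured. Its p-values rest on each gene's departure from the additive model, moderated by the dispersion over all genes. They do not measure a spread between replicate libraries, animals or cultures, and the labels do not describe the animals or cultures. Without the inhibitor as a term, 0 members were called, where 13 genes were higher and 17 lower over all.

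**Figure D1:**
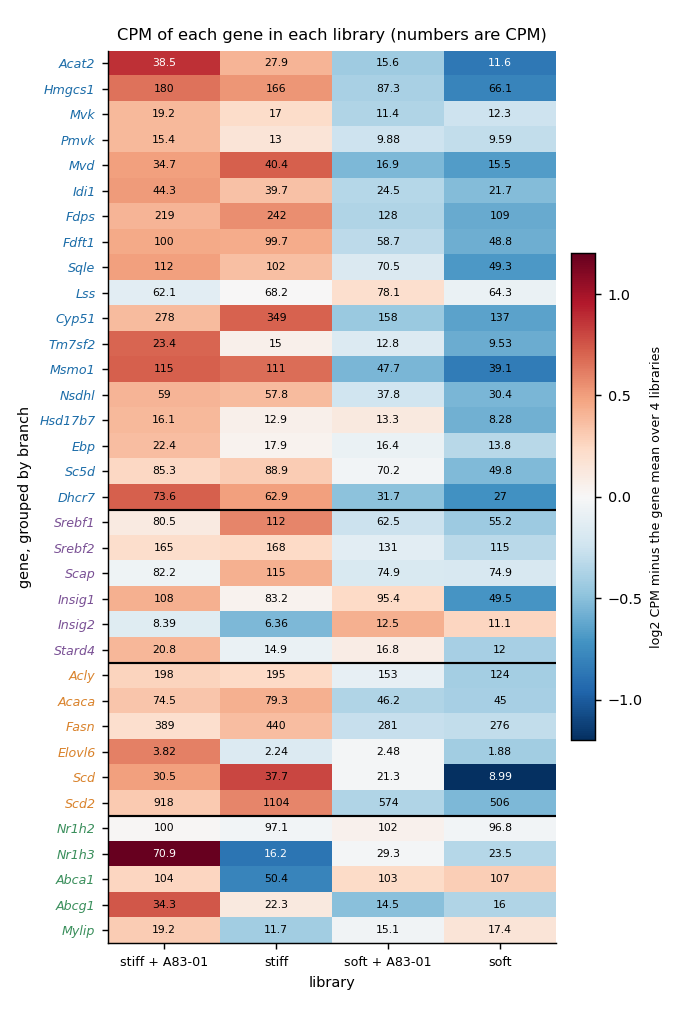
CPM of the 35 genes (rows, grouped into 4 branches by label colour) in the 4 libraries (columns), with each number giving the CPM and the colour giving log2 CPM minus the gene's mean over the libraries. Sterol rows are mostly red in both stiff columns and blue in both soft columns, while Nr1h3 is highest at 70.9 CPM in stiff with A83-01 and lowest at 16.2 CPM in stiff.

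The mevalonate arm, from acetyl-CoA to farnesyl diphosphate, had 5 of its 7 enzymes called. Hmgcs1, the synthase that condenses acetyl groups into HMG-CoA, stood at 180 CPM in stiff and 87.3 CPM in soft with A83-01, and at 166 CPM in stiff and 66.1 CPM in soft without it. Both stiff libraries lay above both soft ones, by 2.06-fold (95% counting interval 1.98 to 2.16) with and 2.50-fold (2.38 to 2.64) without the inhibitor. Acat2, the thiolase that makes acetoacetyl-CoA at the start of the route, stood at 38.5 CPM in stiff and 15.6 CPM in soft with A83-01, and at 27.9 CPM in stiff and 11.6 CPM in soft without it. Its stiff values were again the higher in each pair, and it was highest in the stiff library with A83-01. In the additive model, the log2 rise was 1.28 for Acat2 (SE 0.145, adjusted p = 0.0206) and 1.19 for Hmgcs1 (SE 0.148, adjusted p = 0.0250).

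Mvd, the decarboxylase that yields isopentenyl diphosphate, stood at 34.7 CPM in stiff and 16.9 CPM in soft with A83-01, and at 40.4 CPM in stiff and 15.5 CPM in soft without it. Idi1, the isomerase of that unit, stood at 44.3 CPM in stiff and 24.5 CPM in soft with A83-01, and at 39.7 CPM in stiff and 21.7 CPM in soft without it. Fdps, which joins the units into farnesyl diphosphate, the branch point to sterols and protein prenylation, stood at 219 CPM in stiff and 128 CPM in soft with A83-01, and at 242 CPM in stiff and 109 CPM in soft without it. None of the 3 had a soft library as high as either stiff library. The log2 rise was 1.21 for Mvd (SE 0.163, adjusted p = 0.0282), 0.86 for Idi1 (SE 0.136, adjusted p = 0.0387) and 0.97 for Fdps (SE 0.167, adjusted p = 0.0471). The kinases Mvk and Pmvk, which phosphorylate mevalonate in turn, did not pass (adjusted p = 0.115 and 0.144). Mvk stood at 19.2 CPM in stiff and 11.4 CPM in soft with A83-01, and at 17.0 CPM in stiff and 12.3 CPM in soft without it, and Pmvk was 1.56-fold (1.36 to 1.80) higher in stiff with and 1.36-fold (1.17 to 1.58) higher without the inhibitor.

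From squalene onwards, 5 of 11 enzymes were called. Msmo1, the methyl sterol oxidase that removes the methyl groups at carbon C4, had the largest coefficient of the called members. It stood at 115 CPM in stiff and 47.7 CPM in soft with A83-01, and at 111 CPM in stiff and 39.1 CPM in soft without it. The stiff library was 2.41-fold (2.28 to 2.56) higher with and 2.84-fold (2.67 to 3.04) higher without the inhibitor, and the log2 rise was 1.39 (SE 0.135, adjusted p = 0.0155). Dhcr7, the reductase that closes one of the last steps to cholesterol, stood at 73.6 CPM in stiff and 31.7 CPM in soft with A83-01, and at 62.9 CPM in stiff and 27.0 CPM in soft without it. The log2 rise was 1.22 (SE 0.127, adjusted p = 0.0171), and the ratio was nearly the same in both pairs.

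Fdft1, the squalene synthase and first step committed to sterols, stood at 100.1 CPM in stiff and 58.7 CPM in soft with A83-01, and at 99.7 CPM in stiff and 48.8 CPM in soft without it. Sqle, the epoxidase that acts next and is a rate-limiting oxygen-using step, stood at 112 CPM in stiff and 70.5 CPM in soft with A83-01, and at 102 CPM in stiff and 49.3 CPM in soft without it. Cyp51, the lanosterol demethylase, stood at 278 CPM in stiff and 158 CPM in soft with A83-01, and at 349 CPM in stiff and 137 CPM in soft without it. In all 3 the stiff libraries were the highest, and the gap to soft was narrower with A83-01. Their log2 rises were 0.90 (SE 0.135, adjusted p = 0.0349), 0.86 (SE 0.151, adjusted p = 0.0491) and 1.09 (SE 0.194, adjusted p = 0.0499). Cyp51 and Sqle were the called members nearest to the threshold, and with DESeq2 size factors in edgeR neither they nor Fdps passed. Nsdhl, the dehydrogenase that works with Msmo1, was the nearest outside it (log2 0.79, SE 0.144, adjusted p = 0.0521).

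Lss, the cyclase that folds epoxysqualene into lanosterol, departed from its neighbours in the pathway. It stood at 62.1 CPM in stiff and 78.1 CPM in soft with A83-01, and at 68.2 CPM in stiff and 64.3 CPM in soft without it. With the inhibitor Lss was 1.26-fold (1.19 to 1.33) lower in stiff, and without it the interval included no difference (1.06-fold, 0.997 to 1.13). It was the only sterol enzyme with a log2 coefficient below 0, at −0.12 (SE 0.154, adjusted p = 0.659). The remaining 5 late enzymes did not pass and had coefficients above 0: the sterol reductase Tm7sf2 (log2 0.76, adjusted p = 0.0709), the lathosterol desaturase Sc5d (0.56, adjusted p = 0.144), the ketosteroid reductase Hsd17b7 (0.45, adjusted p = 0.212), the isomerase Ebp (0.41, adjusted p = 0.182) and Nsdhl, given above. Sc5d differed most between the pairs, at 1.22-fold (1.15 to 1.28) higher in stiff with and 1.79-fold (1.68 to 1.90) higher without the inhibitor.

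With A83-01 in both libraries, 17 of 18 sterol enzymes had a log2 ratio of stiff over soft above 0, with a median of 0.77, against a median of 0.01 over all genes tested. Without the inhibitor, 18 of 18 were above 0, with a median of 0.98 against 0.00. In the pair with A83-01, 7 members were 2-fold higher in stiff (5 sterol and 2 efflux) and 0 lower, where 6.88% of all genes were 2-fold higher and 6.72% 2-fold lower. In the pair without it, 12 members were 2-fold higher (9 sterol, 1 control, 2 fatty acid) and 1 lower, Abca1, against 5.33% and 8.58% of all genes. Scaling by total counts puts the median of all genes at −0.23 in the pair without inhibitor. Under it every sterol enzyme but Lss was above 0, and their median was 0.74.

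**Figure D2:**
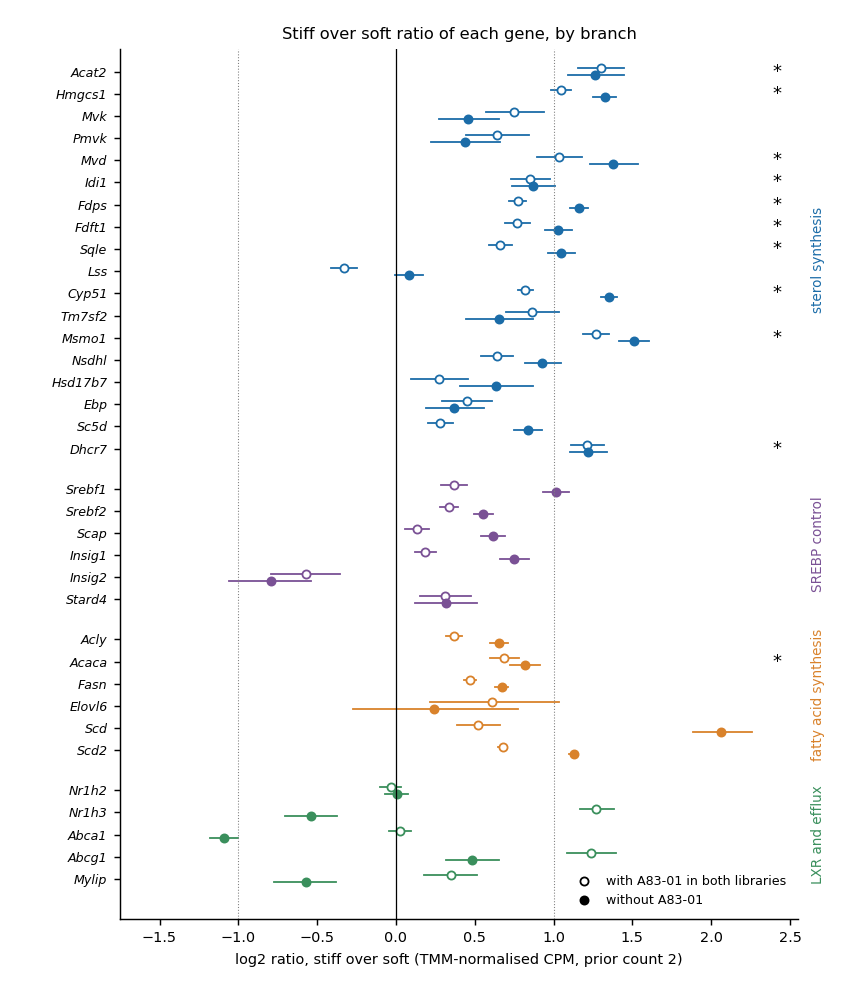
Log2 ratio of stiff over soft for each gene (open points, both libraries with A83-01; filled points, both without), with lines for the 95% counting interval and asterisks for the 11 genes called in the additive model; dotted lines mark 2-fold. Sterol and fatty acid genes lie right of 0 in both pairs apart from Lss, and the efflux genes Nr1h3 and Mylip change side. The intervals of Abca1 with A83-01 (0.03, against −1.09 without it) and of Nr1h2 in both pairs (−0.03 with and 0.00 without) include 0.

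The promoters of the members were searched for motifs of factors known to act on this pathway. RefSeq promoters on GRCr8, 300 bases each, were matched by symbol for 27 of the 35 members. Both strands were searched for CCAAT, the box bound by NF-Y, a partner of SREBP. It stood in 12 of 15 sterol promoters (80.0%), 4 of 5 of SREBP control, 2 of 3 of fatty acid synthesis and 1 of 4 of LXR and efflux, against 37.7% of 27457 promoters and 37.7% of the 9373 promoters of tested genes. Among sterol promoters, CCAAT was in 5 of the 8 of called genes and in 7 of the 7 of genes not called. The sterol regulatory element searched, TCACNCCAC, matched 0 of 27 member promoters and 1.13% of all, the E-box CACGTG matched 4 of 27 (14.8%) and 6.65% of all (9.46% of those of tested genes), and the LXR direct repeat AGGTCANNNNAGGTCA matched 0 of 27 and 0.00364% of all. A match is a description of these letters in this window only. The absence of a match to these fixed letters does not show that a promoter lacks such an element. The LXR repeat matched only 1 of 27457 promoters, so a search of 27 could hardly return a match.

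The 250 bases before the annotated start, 5′ to 3′ on the gene's strand, are given below for the sterol gene with the largest rise (Msmo1), for an early enzyme (Hmgcs1), the branch point (Fdps), the sterol enzyme with a coefficient below 0 (Lss), the most abundant fatty acid gene (Scd2) and the exporter Abca1. CCAAT or its complement is in capitals. It begins 173, 109 and 68 bases before the start in Msmo1, 188 and 133 in Hmgcs1, 130 and 85 in Fdps, 82 in Lss, and 97 and 54 in Scd2, and the Abca1 window holds none.
Msmo1 (chr16:29746863-29747112, GRCr8, plus strand): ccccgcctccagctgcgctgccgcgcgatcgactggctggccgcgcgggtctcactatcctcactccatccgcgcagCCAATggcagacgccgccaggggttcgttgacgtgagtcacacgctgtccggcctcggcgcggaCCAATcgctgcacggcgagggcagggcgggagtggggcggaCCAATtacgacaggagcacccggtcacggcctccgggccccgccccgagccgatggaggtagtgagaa
Hmgcs1 (chr2:53382054-53382303, GRCr8, plus strand): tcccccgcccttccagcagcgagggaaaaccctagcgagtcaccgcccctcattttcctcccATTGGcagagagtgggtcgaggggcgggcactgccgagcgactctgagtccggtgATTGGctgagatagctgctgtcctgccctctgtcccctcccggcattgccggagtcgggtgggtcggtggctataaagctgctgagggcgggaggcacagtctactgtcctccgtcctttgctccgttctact
Fdps (chr2:176804817-176805066, GRCr8, minus strand): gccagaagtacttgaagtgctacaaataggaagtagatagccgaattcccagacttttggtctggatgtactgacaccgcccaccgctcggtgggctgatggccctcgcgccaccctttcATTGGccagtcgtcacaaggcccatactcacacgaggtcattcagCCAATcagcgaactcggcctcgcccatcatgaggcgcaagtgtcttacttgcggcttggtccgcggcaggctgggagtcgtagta
Lss (chr20:12118231-12118480, GRCr8, minus strand): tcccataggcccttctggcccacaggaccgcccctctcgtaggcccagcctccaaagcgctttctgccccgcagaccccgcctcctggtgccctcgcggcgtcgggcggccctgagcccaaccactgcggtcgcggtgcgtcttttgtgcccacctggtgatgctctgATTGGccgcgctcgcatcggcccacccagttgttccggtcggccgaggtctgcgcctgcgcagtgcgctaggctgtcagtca
Scd2 (chr1:253118127-253118376, GRCr8, plus strand): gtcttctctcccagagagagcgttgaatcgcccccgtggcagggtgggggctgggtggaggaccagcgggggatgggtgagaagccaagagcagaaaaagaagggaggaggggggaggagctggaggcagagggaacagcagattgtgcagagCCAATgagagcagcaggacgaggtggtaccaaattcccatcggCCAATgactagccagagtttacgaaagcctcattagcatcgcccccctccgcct
Abca1 (chr5:72596474-72596723, GRCr8, minus strand): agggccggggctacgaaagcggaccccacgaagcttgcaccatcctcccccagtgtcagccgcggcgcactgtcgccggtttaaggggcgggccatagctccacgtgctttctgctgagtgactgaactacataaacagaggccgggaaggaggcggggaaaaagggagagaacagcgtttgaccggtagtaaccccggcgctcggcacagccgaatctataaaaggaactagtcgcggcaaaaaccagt

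The genes of SREBP control were less uniform, and 0 of 6 were called for stiffness by the quasi-likelihood test (3 higher and 1 lower at an unadjusted p of at most 0.05, where 12.1% and 13.2% of all genes were, and 0 by DESeq2 and by limma-voom). Srebf2, the SREBP that serves mainly the sterol genes, stood at 165 CPM in stiff and 131 CPM in soft with A83-01, and at 168 CPM in stiff and 115 CPM in soft without it. Srebf1, whose products serve mainly fatty acid synthesis, stood at 80.5 CPM in stiff and 62.5 CPM in soft with A83-01, and at 112 CPM in stiff and 55.2 CPM in soft without it. Stiff was the higher in each pair for both genes, and for Srebf1 the ratio was 1.29-fold (1.22 to 1.36) with and 2.02-fold (1.91 to 2.14) without the inhibitor. Neither passed (adjusted p = 0.151 for Srebf2 and 0.115 for Srebf1). Scap, the SREBP escort, was 1.10-fold (1.04 to 1.16) higher in stiff with and 1.53-fold (1.45 to 1.61) higher without the inhibitor.

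The INSIG genes lay on opposite sides. Insig1, itself a target of SREBP and the retainer made when sterol synthesis is active, stood at 108 CPM in stiff and 95.4 CPM in soft with A83-01, and at 83.2 CPM in stiff and 49.5 CPM in soft without it. The soft library without inhibitor was the low one, and the other 3 lay between 83.2 and 108 CPM. Insig2 stood at 8.39 CPM in stiff and 12.5 CPM in soft with A83-01, and at 6.36 CPM in stiff and 11.1 CPM in soft without it. It was the one control gene with lower values in stiff in both pairs, 1.48-fold (1.28 to 1.73) with and 1.73-fold (1.45 to 2.08) without A83-01, and it did not pass (log2 −0.68, SE 0.185, adjusted p = 0.110). Stard4, a carrier of cholesterol between membranes, had log2 ratios of stiff over soft of 0.31 with and 0.32 without A83-01 and did not pass (adjusted p = 0.276). As a branch, the control genes had median log2 ratios of stiff over soft of 0.25 with and 0.58 without A83-01.

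All 6 fatty acid genes had higher values in stiff than in soft in both pairs, and 1 of them, Acaca, was called. Acaca, the acetyl-CoA carboxylase that makes malonyl-CoA, stood at 74.5 CPM in stiff and 46.2 CPM in soft with A83-01, and at 79.3 CPM in stiff and 45.0 CPM in soft without it. The values with and without inhibitor nearly coincided on each matrix, and the log2 rise was 0.75 (SE 0.126, adjusted p = 0.0435), a call that DESeq2 size factors in edgeR and both fits on FPKM ended. Acly, which splits citrate into cytosolic acetyl-CoA for both pathways, stood at 198 CPM in stiff and 153 CPM in soft with A83-01, and at 195 CPM in stiff and 124 CPM in soft without it (adjusted p = 0.133). Fasn, the synthase itself, was 1.39-fold (1.35 to 1.42) higher in stiff with and 1.59-fold (1.55 to 1.63) higher without the inhibitor (adjusted p = 0.126). These ratios were smaller than those of most sterol enzymes. Elovl6, the elongase of palmitate, had only 63 to 136 counts a library, and its interval without inhibitor included no difference (1.18-fold, 0.827 to 1.71).

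The stearoyl-CoA desaturases, which put the double bond into oleate and palmitoleate, held the highest and the next to lowest level of the branch per length (FPKM). Scd2 stood at 918 CPM in stiff and 574 CPM in soft with A83-01, and at 1104 CPM in stiff and 506 CPM in soft without it. Scd stood at 30.5 CPM in stiff and 21.3 CPM in soft with A83-01, and at 37.7 CPM in stiff and 8.99 CPM in soft without it. The soft library without inhibitor was by far the lowest for Scd. Its stiff over soft ratio was 1.44-fold (1.31 to 1.58) with and 4.18-fold (3.69 to 4.78) without the inhibitor, and that of Scd2 was 1.60-fold (1.57 to 1.63) with and 2.18-fold (2.14 to 2.22) without it. Neither passed (Scd log2 1.28, SE 0.393, adjusted p = 0.138; Scd2 log2 0.90, SE 0.214, adjusted p = 0.0862), while DESeq2 called both higher. Scd and Scd2 are close paralogs, so how the counting split shared reads is uncertain.

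Set side by side, the sterol branch had the larger median and the larger share called. The median log2 ratio of stiff over soft with A83-01 was 0.77 for sterol synthesis and 0.57 for fatty acid synthesis, a difference of 0.21, and without it 0.98 and 0.74, a difference of 0.24. The share called was 10 of 18 (55.6%) against 1 of 6 (16.7%), and at an unadjusted p of at most 0.05 it was 16 of 18 (88.9%) against 5 of 6 (83.3%), where 12.1% of all genes were higher. The difference between the branches was not tested. Fatty acid ratios ran from 0.24 (Elovl6) to 2.06 (Scd) on the log2 scale without inhibitor, a wider span than the 0.08 (Lss) to 1.51 (Msmo1) of the sterol enzymes.

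No gene of LXR and efflux passed the test for stiffness: 0 of 5 were called by the quasi-likelihood test (1 higher and 0 lower at an unadjusted p of at most 0.05, where 12.1% and 13.2% of all genes were, and 0 by DESeq2 and by limma-voom). Their median log2 ratio of stiff over soft was 0.35 with A83-01 and −0.54 without it. Nr1h2, which encodes the broadly expressed LXR-beta, stood at 100.2 CPM in stiff and 102 CPM in soft with A83-01, and at 97.1 CPM in stiff and 96.8 CPM in soft without it, the flattest profile of the 5. Nr1h3, which encodes LXR-alpha, stood at 70.9 CPM in stiff and 29.3 CPM in soft with A83-01, and at 16.2 CPM in stiff and 23.5 CPM in soft without it. The lowest and the highest value of Nr1h3 were thus both on stiff matrix. It was 2.41-fold (2.24 to 2.60) higher in stiff with A83-01 and 1.45-fold (1.29 to 1.63) lower in stiff without it.

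Abca1, the exporter that loads cholesterol onto lipid-poor apolipoprotein A-I, stood at 104 CPM in stiff and 103 CPM in soft with A83-01, and at 50.4 CPM in stiff and 107 CPM in soft without it. The stiff library without inhibitor stood alone, 2.13-fold (2.002 to 2.26) below soft, and the other 3 lay between 103 and 107 CPM. Abcg1, the exporter that loads onto HDL, stood at 34.3 CPM in stiff and 14.5 CPM in soft with A83-01, and at 22.3 CPM in stiff and 15.95 CPM in soft without it. Unlike Abca1 it had higher values in stiff in both pairs, 2.36-fold (2.13 to 2.63) with and 1.40-fold (1.24 to 1.57) without A83-01, and it did not pass (log2 0.86, SE 0.227, adjusted p = 0.104). Mylip, the LXR-induced ubiquitin ligase that degrades lipoprotein receptors, stood at 19.2 CPM in stiff and 15.1 CPM in soft with A83-01, and at 11.7 CPM in stiff and 17.4 CPM in soft without it. Its lowest value, like those of Nr1h3 and Abca1, was in stiff without inhibitor.

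**Figure D3:**
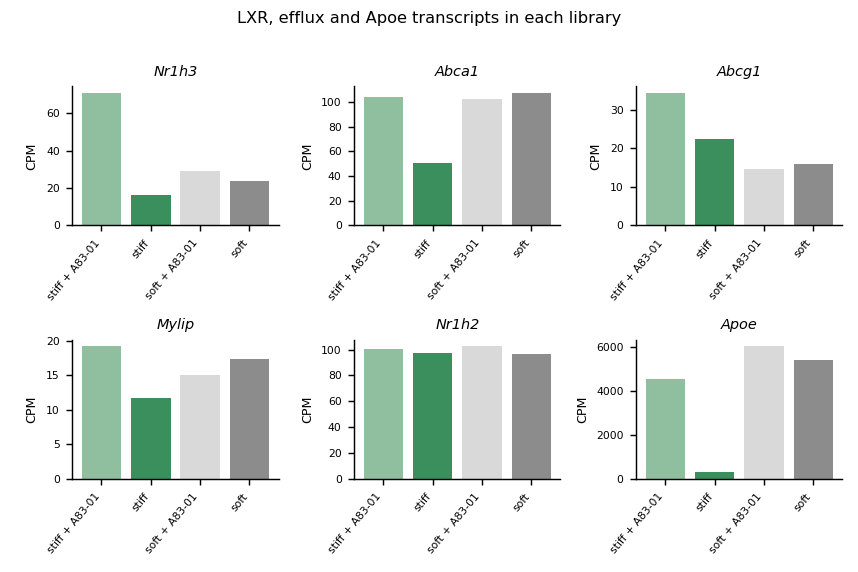
CPM of the 5 LXR and efflux genes and of Apoe in the 4 libraries (bars, 1 library each, no error bar). Nr1h3, Abca1, Mylip and Apoe are lowest in stiff without A83-01, Abcg1 is higher in both stiff libraries, and Nr1h2 runs from 96.8 to 102 CPM.

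No member passed the test for the inhibitor itself. In the additive model, the quasi-likelihood test called 0 of the 35 members for A83-01 in either direction, where 0% of all genes were called higher and 0.044% lower. At an unadjusted p of at most 0.05, 6 members were higher and 0 lower, against 7.25% and 6.04% of all genes. DESeq2 also called 0 members, where 219 genes were higher and 241 lower over all. The same held for limma-voom, where 0 genes were higher and 3 lower. Total-count scaling moves the median inhibitor coefficient of all genes up by 0.15. With it 2 members were called higher, Nr1h3 and Insig1, where 563 of 13653 genes were higher and 271 lower. On stiff matrix, 2 members were 2-fold higher with A83-01, Nr1h3 and Abca1, and 0 were lower, against 7.8% and 4.47% of all genes. Nr1h3 was 4.36-fold (3.96 to 4.84) and Abca1 2.07-fold (1.95 to 2.20) higher with the inhibitor there. On soft matrix, 1 member was 2-fold higher, Scd at 2.35-fold (2.06 to 2.71), and 0 were lower, against 2.18% and 2.44% of all genes. Insig1 came next on soft matrix, at 1.93-fold (1.82 to 2.05).

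On stiff matrix, the median log2 ratio of A83-01 over none was 0.12 for sterol, 0.18 for control, −0.13 for fatty acid and 0.72 for LXR and efflux genes, and on soft matrix it was 0.27, 0.19, 0.25 and −0.06. All 5 efflux genes had ratios above 0 on stiff and 2 of 5 on soft, while 17 of 18 sterol and 6 of 6 fatty acid genes had ratios above 0 on soft. Over all genes tested, 52.4% had ratios above 0 on stiff and 49.6% on soft. The fatty acid median on stiff depended on the scaling: with total counts it was 0.15, where the median of all genes was 0.31. Under that scaling 17 of 18 sterol genes lay above 0 on stiff, against 13 with TMM.

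**Figure D4:**
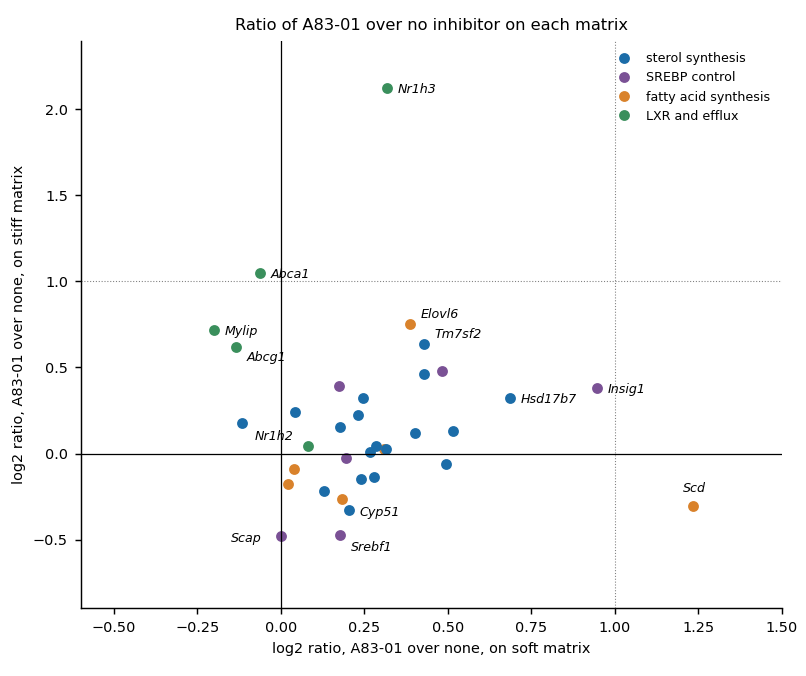
Log2 ratio of A83-01 over no inhibitor on stiff matrix (vertical) against soft matrix (horizontal) for each gene, coloured by branch, with dotted lines at 2-fold. The 5 efflux genes lie above 0 on stiff, led by Nr1h3 at 2.12, and Scd and Insig1 lie furthest right at 1.24 and 0.95.

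With TMM scaling, the stiffness ratio of most synthesis genes was smaller, and that of most efflux genes larger, with A83-01 than without it. The difference of the log2 ratios, with A83-01 minus without, was below 0 for 13 of 18 sterol, 5 of 6 control and 5 of 6 fatty acid genes, and above 0 for 4 of 5 efflux genes. Over all genes tested its median was 0.02, with 47.7% below 0. For the synthesis genes this direction depended on the scaling. With total counts the sterol median of stiff over soft was 0.81 with and 0.74 without A83-01. The fatty acid median was then 0.60 with and 0.51 without it, and that of all genes 0.05 and −0.23. The efflux median stayed higher with A83-01, at 0.39 against −0.77. Counting intervals excluded 0 for 20 members below and 5 above, against 25.8% and 27.5% of all genes. The largest differences were those of Nr1h3 (1.81, 1.61 to 2.004), Scd (−1.54, −1.77 to −1.31), Abca1 (1.11, 1.00 to 1.22) and Mylip (0.92, 0.66 to 1.17). These intervals cover counting error alone, and no test of these differences is possible with 1 library a group.

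Levels between genes are compared as FPKM, which scales by transcript length. Averaged over the 4 libraries, Scd2 led at 122 ± 38.7 FPKM (SD over the 4 libraries, which differ in condition), followed by Fdps at 96.1 ± 36.8 and Cyp51 at 54.6 ± 20.9. The gap between Scd2 and Fdps was smaller than either spread, and that between Fdps and Cyp51 was larger. This spread holds the differences between conditions and is not an error of the order. Scd2 was above Fdps in each library, at 157 against 135 FPKM in stiff with A83-01 and 154 against 118 in stiff. In soft with A83-01 they stood at 94.2 against 73.4 FPKM, and in soft at 83.3 against 57.2. Nr1h2, at 39.7 ± 4.11 FPKM, was the highest efflux gene and varied least relative to its mean. Insig1 at 28.1 and Srebf2 at 23.3 FPKM led the control branch. The lowest levels were those of Elovl6 at 1.89, Hsd17b7 at 2.59 and Mylip at 4.21 FPKM.

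Other genes of lipid metabolism placed the members in context, counted by the same quasi-likelihood test. Of 10 genes of SREBP cleavage, degradation and regulation, among them the AMPK subunit Prkaa1, 0 were called, and 0 at an unadjusted p of at most 0.05. Of 20 further lipogenic genes 3 rose and 1 fell. Fads2, a desaturase of polyunsaturated fatty acids, stood at 118 CPM in stiff and 45.6 CPM in soft with A83-01, and at 121 CPM in stiff and 41.3 CPM in soft without it. It rose by 1.46 (SE 0.131, adjusted p = 0.0146), the acetoacetyl-CoA synthetase Aacs by 1.12 (SE 0.137, adjusted p = 0.0240) and Mid1ip1, an activator of acetyl-CoA carboxylase, by 0.95 (SE 0.123, adjusted p = 0.0264). Dgat2, which makes triglyceride for storage, fell by 1.60 (SE 0.166, adjusted p = 0.0168).

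Of 21 genes of sterol uptake, storage, oxysterols and lipoproteins, 0 rose and 3 fell on stiff matrix. The oxysterol-making hydroxylase Ch25h fell by 3.12 (SE 0.505, adjusted p = 0.0405), the lipoprotein receptor Lrp1 by 1.61 (SE 0.261, adjusted p = 0.0405) and the oxysterol hydroxylase Cyp7b1 by 1.59 (SE 0.134, adjusted p = 0.0124). Ch25h stood at 5.55 CPM in stiff and 25.4 CPM in soft with A83-01, and at 2.51 CPM in stiff and 44.8 CPM in soft without it. Apoe, an LXR target that carries exported cholesterol, did not pass (adjusted p = 0.265) and is named for its profile, seen after the values were known. It stood at 4540 CPM in stiff and 6029 CPM in soft with A83-01, and at 295 CPM in stiff and 5426 CPM in soft without it. Like Abca1, Apoe was low in the stiff library without inhibitor alone. Pltp and Lpcat3, LXR targets of the same list, did not share this profile. Pltp, a phospholipid transfer protein, stood at 87.8 CPM in stiff and 136 CPM in soft with A83-01, and at 53.2 CPM in stiff and 46.4 CPM in soft without it. Lpcat3, a phospholipid acyltransferase, stood at 187 CPM in stiff and 196 CPM in soft with A83-01, and at 191 CPM in stiff and 138 CPM in soft without it.

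**Figure D5:**
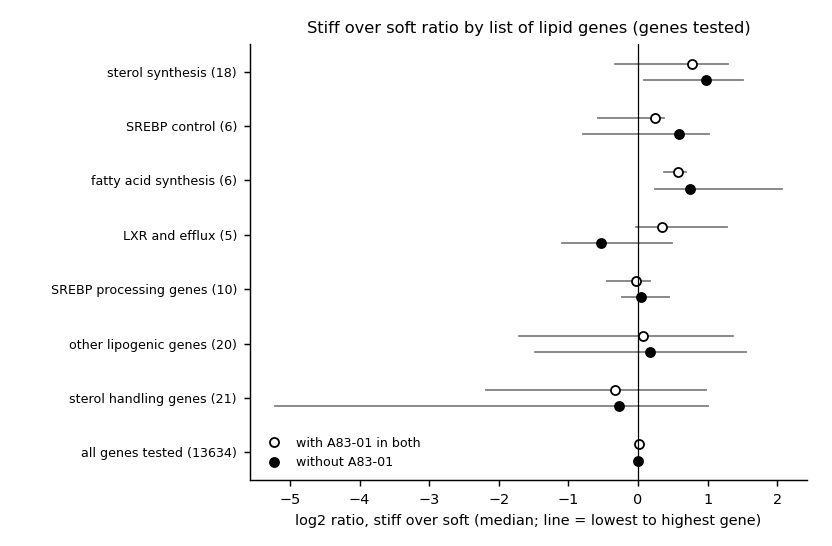
Median log2 ratio of stiff over soft for the 4 branches, 3 further lists of lipid genes and all genes tested (open points, with A83-01 in both libraries; filled points, without), with lines from the lowest to the highest gene and the number of genes in parentheses. The sterol and fatty acid medians lie between 0.57 and 0.98, the furthest right of the lists within each pair, and the medians of the further lists lie within 0.34 of 0.

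Markers of the labelled vascular cells were present in every library, and several lists moved with the matrix. The summed level of 10 mural markers was 7489 CPM in stiff with A83-01, 8034 in stiff, 2174 in soft with A83-01 and 2901 in soft, with 4 called higher. Acta2 alone stood at 2428, 3691, 88.9 and 271 CPM in the same order. On stiff matrix the mural sum was lower with A83-01, while 6 of the 10 markers were higher and 4 lower. The 13 endothelial markers summed to 2807, 1643, 2063 and 2040 CPM in that order, with 2 called lower. The 9 fibroblast markers summed to 10919, 9256, 27131 and 17058 CPM, with 1 called higher and 2 lower. Dcn carried the fibroblast sum, and the other 8 markers summed to 5640, 7814, 5176 and 5538 CPM, higher in stiff than in soft in each pair. Adipocytes and macrophages also make or export much lipid. Adipocyte markers summed to 58.4, 28.8, 89.99 and 55.1 CPM, with 3 of 7 called lower. Adipoq, which was not called, and Plin1 had 0 counts in stiff, and 9 and 10 counts in stiff with A83-01. Pparg alone of the 7 was higher in stiff in both pairs, at 20.8, 8.22, 9.22 and 5.92 CPM, and did not pass. Macrophage markers summed to 103, 85.8, 170 and 122 CPM, with 1 of 10 called higher and 2 lower. Schwann cell markers summed to 157, 219, 102 and 117 CPM, with 0 of 7 called. Epidermal and sebocyte markers were at 2.44 to 2.84 CPM in sum, with Krt5, Krt14, Krt15 and Dsg3 at 0 in all libraries. Cell cycle genes, 16 in number, summed to 1292, 673, 612 and 507 CPM, with 0 called and 11 higher on stiff at an unadjusted p of at most 0.05, against 12.1% of all genes. The part of these cells and of proliferation in the members' values was not tested.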

How the data were processed

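Total RNA of the 4 cultures was extracted with Trizol, selected with oligo(dT), copied from random hexamers, PCR-amplified and sequenced from both ends (DNBSEQ-T7), per the labels' protocols. Neither molecular identifiers nor a strand-marking step is mentioned, so intervals cover counting error only, and overlapping genes on opposite strands may share reads. The deposited counts are the authors' whole-number reads per gene, and the deposited FPKM values are the authors' length- and depth-scaled levels. Per the submitters' processing notes, HISAT2, edgeR and Rnor_6.0 were used. The read counter was not given in the sources used here, nor was the annotation. In 32 of the 35 genes, the length implied by count over FPKM agreed between libraries within 5%, and the largest spread was 13.3%.

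Genes with at least 1 CPM in at least 1 library were kept. The additive model used edgeR 4.0.16 in R 4.3.3 over all 4 libraries (common dispersion 0.0351). Pair ratios used a prior count of 2 with 95% Clopper-Pearson conditional intervals of the count ratio, and 2-fold required an interval excluding 1. Differences of ratios have delta-method counting intervals. Scripts were tested on simulated data. Alternatives used DESeq2 1.42.0, limma 3.58.1 (voom, and log2(FPKM + 0.1) or log2(FPKM + 1)), other scalings and other filters. All 35 members are accounted for. CPM is given in every library for members called, for those 2-fold apart in any pair and for the 2 highest by mean FPKM in each branch. From the other lipid lists, genes called could be named. Members and lists were chosen with earlier results of these data known. Paralog protein sequences were not compared here, and 1 further list of lipid genes is not reported here.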

Additional observations from a re-analysis of the deposited data

Results flagged for a closer look

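Nr1h3, the LXR-alpha gene, had stiffness responses of opposite sign without and with A83-01. Its log2 ratio of stiff over soft was 1.27 with the inhibitor in both libraries and −0.54 without it. The same held for Mylip, with 0.35 with A83-01 and −0.57 without. Each ratio compares 1 library with 1 library, and the difference between the responses was not tested.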

How the results depend on the processing

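The count of sterol enzymes called higher on stiff matrix was 10 in the additive model and 0 without the inhibitor in the model, where 13 genes were called higher and 17 lower in all. Of the fatty acid genes 1 was called; this became 0 without the inhibitor in the model and 0 with DESeq2 size factors in edgeR, 3 with DESeq2 and with total-count scaling, and 2 with limma on either FPKM scale. For stiffness, 1 control gene was called with total counts (Srebf1) and 1 efflux gene with limma on log2(FPKM + 0.1) (Abcg1). For A83-01, 1 control gene (Insig1) and 1 efflux gene (Nr1h3) were called with total counts and on both FPKM scales. In these settings 563 to 645 genes were called higher and 271 to 289 lower over all. Of the 35 members, 7 to 15 were called higher on stiff in the alternatives that kept the inhibitor in the model, and 0 lower in each. Over all genes, these alternatives called 242 to 677 higher and 323 to 1136 lower. The 7 came with DESeq2 size factors in edgeR (242 higher and 323 lower over all). The 15 came with total counts (621 and 1136). DESeq2 size factors ended the calls of Fdps, Sqle, Cyp51 and Acaca, limma on log2(FPKM + 1) that of Idi1, and limma on both FPKM scales that of Acaca; Nsdhl was called under 5 alternatives.

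Medians follow for total counts, FPKM with a pseudocount of 0.1 and FPKM with a pseudocount of 1, in that order. The sterol median of stiff over soft was 0.74, 0.73 and 0.68 without A83-01, and 0.81, 0.85 and 0.80 with it. That of A83-01 over none on stiff was 0.41, 0.42 and 0.41. The fatty acid medians of stiff over soft were 0.51, 0.50 and 0.46 without A83-01, and 0.60, 0.61 and 0.50 with it. On stiff for A83-01 they turned positive, at 0.15, 0.16 and 0.15. The efflux medians of stiff over soft without A83-01 were −0.77 with total counts and −0.77 with FPKM and 0.1. For A83-01 on stiff they were 1.00 and 0.99. With total counts the median of all genes moved by −0.23 for stiff over soft without A83-01 and by 0.04 with it. For A83-01 on stiff it moved by 0.28. No called coefficient and no pair ratio past 2-fold changed sign in any alternative; Lss, at 0.08 for stiff over soft, fell below 0 with total counts and on both FPKM scales. The differences between branch medians kept their sign. Leaving out a library was not run, since 3 libraries leave no residual degree of freedom. Low counts limit Elovl6, with 63 counts in soft. No paired analysis was possible because each group holds 1 library.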
